A study of Homo sapiens with 6 samples.

Results

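The high mobility group (HMG) chromatin proteins were followed in MDA-MB-231 cells, a triple-negative breast cancer line, after HMGA2 was lowered with short hairpin RNAs (shRNAs). The members were the 10 genes whose symbol in the deposited table was HMGA2, HMGA1, HMGB1, HMGB2, HMGB3 or HMGN1 to HMGN5, of 61806 genes in all, and all 10 passed the filter on low counts. RNA was sequenced from 3 lines with 2 libraries each, titled shNC (the control), shHMGA2-1 and shHMGA2-2. Groups follow the titles, but the deposited library names read WT for shNC and SH2 for shHMGA2-1. That the control carried a hairpin rests on the titles and on the study's methods, which name it shNC. Which hairpin is in which line rests on the titles alone. All 3 were MDA-MB-231 cells, and the study's methods describe stable knockdown lines as grown from single colonies after lentiviral infection under puromycin, while cloning of the control is not given in the sources used here. Clone and hairpin therefore cannot be told apart, and the p-values measure only the spread between libraries, which may be technical. The question was whether other HMG proteins change when HMGA2 is lowered.

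HMG proteins are abundant, small non-histone proteins that bend, coat or loosen chromatin, and they fall into 3 families. HMGA proteins carry AT-hook motifs that bind the minor groove of AT-rich DNA, HMGB proteins bend DNA with HMG-box domains and can act as danger signals outside the cell, and HMGN proteins bind the nucleosome core and oppose chromatin compaction by linker histone H1. HMGA1 and HMGA2 are high in embryos, low in most adult tissues and high again in many carcinomas, and HMGA2 messenger RNA is a well-known target of the let-7 microRNAs.

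The hairpin targets are shown because they define what each hairpin should remove, and they are tied to the lines by title only. The 21-base targets given in the study's methods were located in the GENCODE version 29 transcripts of HMGA2 (GRCh38, plus strand), with the 7 bases that pair with the seed of the hairpin's guide strand in capitals.
shHMGA2-1 target: agtccctctaaagCAGCTCAa
shHMGA2-2 target: aggaggaaactgaAGAGACAt
The shHMGA2-1 target lay in the coding sequence in exon 2, at chr12:65828064-65828084, and was present in 7 of 7 coding transcripts of HMGA2. The shHMGA2-2 target joined exon 4, with its first base at position 65951414 of chromosome 12, to exon 5, with its last base at position 65963263, and was present in 1 of the 7. No coding transcript of another gene held either target. In the other members the closest stretch of 21 bases differed at 7 to 9 positions from the shHMGA2-1 target and at 7 or 8 from the shHMGA2-2 target, and in HMGA1 at 7 and 8. The seed site of shHMGA2-1 occurred in a 3′ UTR of 3 of the 10 members (HMGA2 itself, HMGB2 and HMGB3) against 17.2% of 19146 genes, and that of shHMGA2-2 in 1 (HMGB1) against 18.4%. HMGA1, HMGN2 and HMGN5 held neither site there.

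Libraries held 16461178 to 17167293 counts, of which the 10 members took 0.273% to 0.311%. The label MDA-MB-231 was set against marker genes. Of its 4 markers VIM had 35046 to 38106 counts and CD44 11002 to 15764, with shNC lowest. EGFR had 9019 and 9103 counts in the control libraries, 5646 and 5765 with shHMGA2-1 and 3429 and 3145 with shHMGA2-2, and AXL had 19599 and 20223, 16745 and 14638, and 10662 and 11225, so that both were present throughout and stepped down in the order of HMGA2. Their part in the results was not tested. ESR1 had 2 to 12 counts and PGR 0 to 2, and the leukocyte genes CD3E and PTPRC 0 and 0 to 2, while the endothelial gene PECAM1 had 14 and 11 counts in shNC and 0 to 2 in the knockdown libraries. ERBB2 had 1126 to 1909. In bulk RNA, fewer cells with a transcript and less of it per cell cannot be told apart.

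Both HMGA genes fell in both lines, HMGB2, HMGB3, HMGN1 and HMGN2 rose in both, and HMGN5 fell in shHMGA2-2 and did not pass the test in shHMGA2-1. With edgeR's quasi-likelihood test over 16110 genes (changed: Benjamini-Hochberg adjusted p under 0.05), 4 members were higher and 3 lower in shHMGA2-1, against 15.8% and 17.6% of all genes, and 1 passed 2-fold, against 8.49%. In shHMGA2-2, 4 were higher and 5 lower, against 29.5% and 29.2%, and 4 passed 2-fold, against 21.3%. The members counted as lower and as past 2-fold include HMGA2 itself, whose fall was set by the design. In shHMGA2-1 HMGA2 was the only member past 2-fold, so that none of the others was. With so many genes called in shHMGA2-2, a call there says little about a member by itself. In size, the median absolute log2 change of the members was 0.28 in shHMGA2-1, beside 0.26 over all genes. In shHMGA2-2 it was 0.40, beside 0.47. Across the lines 4 members were higher in both and 3, HMGA2 among them, lower in both, against 9.93% and 12.6% of all genes. None was called in opposite directions, and of all 16110 genes only 509 were, so that this says little about the members. These comparisons share the shNC libraries, so their directions are not independent.

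**Figure D1:**
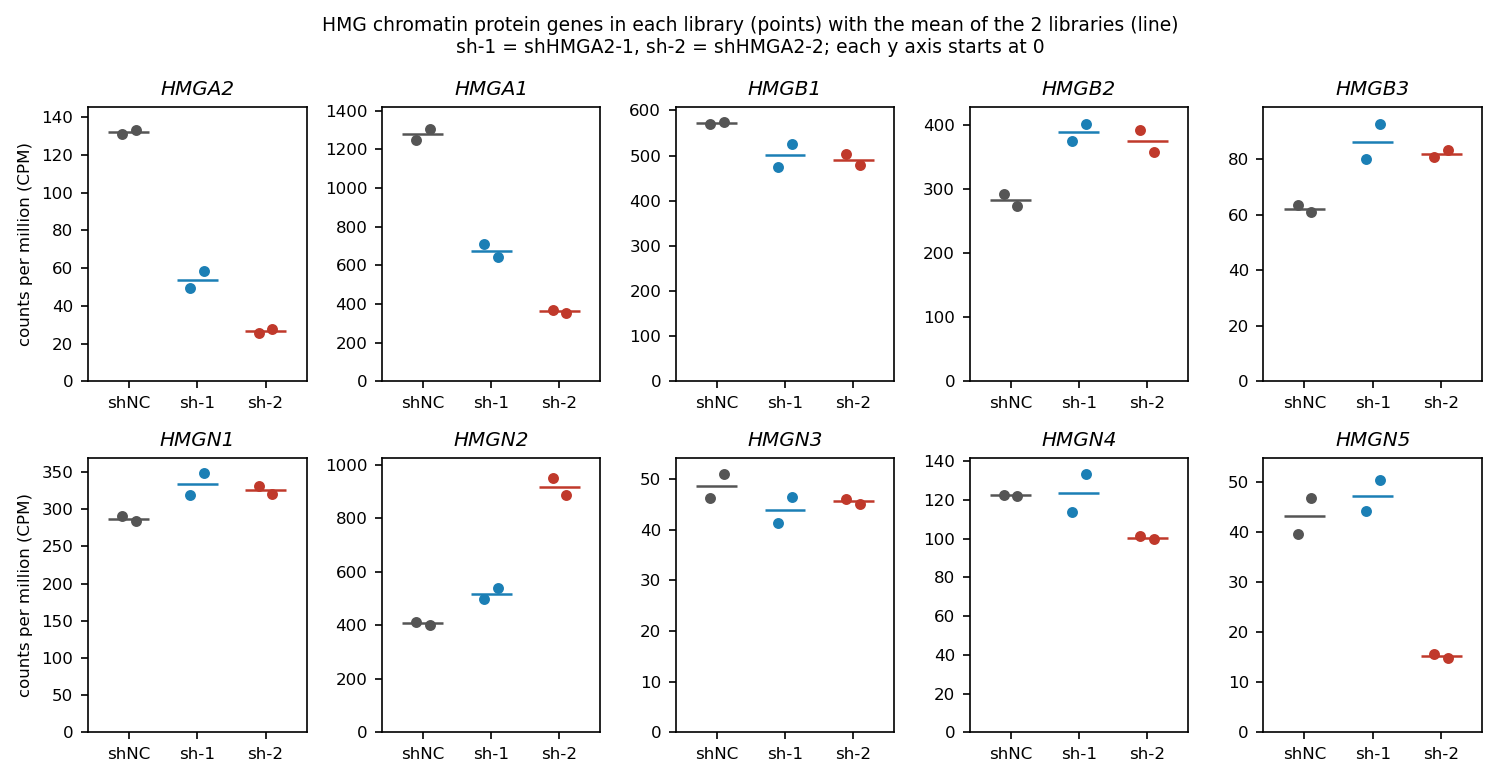
CPM values (library-scaled counts, y axes from 0) of the 10 HMG genes in the 6 libraries. Points are libraries and lines are the mean of the 2 libraries of shNC, shHMGA2-1 (sh-1) and shHMGA2-2 (sh-2). HMGA2 and HMGA1 step down from shNC to sh-1 to sh-2, HMGN2 steps up, and HMGN5 is low only in the sh-2 libraries (15.6 and 14.9 CPM against 39.7 to 50.5 in the others).

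HMGA2, the targeted gene (chr12:65824460-65966291), had 2126 and 2161 counts in the control libraries, 858 and 989 with shHMGA2-1 and 435 and 482 with shHMGA2-2. The 3 lines did not overlap, and shHMGA2-2 was lowest. Against shNC it changed by -1.29 ± 0.09 (log2, ± SE) in shHMGA2-1, with an adjusted p of 2.17e-11, and by -2.31 ± 0.09 in shHMGA2-2, with 2.11e-16, so that 40.8% and 20.2% of the shNC level remained in the fitted values. The lines differed from each other by -1.01 ± 0.10 (adjusted p = 3.07e-09). Gene counts do not separate the transcripts that hold the shHMGA2-2 target from those that do not.

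HMGA1, the paralog of HMGA2 with the same AT-hook design (chr6:34236873-34246231), had 20319 and 21184 counts in the control libraries, 12283 and 10955 with shHMGA2-1 and 6228 and 6192 with shHMGA2-2. Its order was that of HMGA2, with no overlap between lines. Its log2 fold change was -0.92 ± 0.06 in shHMGA2-1 (95% interval -1.04 to -0.79, adjusted p = 1.49e-11) and -1.82 ± 0.06 in shHMGA2-2 (-1.95 to -1.69, adjusted p = 9.41e-18). Among all tested genes these changes stood at percentiles 5.24 and 4.21 of the log2 fold changes, counted from the most negative. The step between the knockdown lines was -0.90 ± 0.06 (adjusted p = 7.25e-12), beside -1.01 for HMGA2.

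HMGA1 was also by far the larger HMGA transcript on the FPKM scale, which divides counts by the exonic size of the gene and the library total. In shNC it stood at 525 ± 15.4 FPKM (SD, n = 2), rank 30 of all genes, and HMGA2 at 8.38 ± 0.092, rank 4962. The FPKM ratio of HMGA1 to HMGA2 was 61.9 and 63.5 in the control libraries and 71.8 to 92.9 in the 4 knockdown libraries. The exonic sizes used were 15070 bases for HMGA2 and 2327 for HMGA1, and the former spans the exons of all transcripts, long alternative 3′ ends included, so the ratio depends on which transcripts are present. In shHMGA2-2 HMGA1 stood at 162 ± 1.53 FPKM and HMGA2 at 1.84 ± 0.13.

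A promoter of HMGA1, the entry at the start of the gene in the deposited table, is shown because HMGA1 fell with HMGA2, and those of HMGN2 and HMGN5 because they were the other members past 2-fold in a line. The sequences are from RefSeq (GRCh38.p14), 250 bases before to 50 after the start, and runs of at least 6 bases that are each A or T, the kind of DNA that AT-hooks bind, are in capitals.
HMGA1 promoter, chr6:34236623-34236922, plus strand: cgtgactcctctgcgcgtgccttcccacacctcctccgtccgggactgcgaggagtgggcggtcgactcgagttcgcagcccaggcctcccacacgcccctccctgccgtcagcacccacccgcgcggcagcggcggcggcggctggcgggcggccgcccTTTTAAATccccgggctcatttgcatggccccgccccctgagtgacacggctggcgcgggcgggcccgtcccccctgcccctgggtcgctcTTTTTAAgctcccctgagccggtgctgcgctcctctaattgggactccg
HMGN2 promoter, chr1:26472190-26472489, plus strand: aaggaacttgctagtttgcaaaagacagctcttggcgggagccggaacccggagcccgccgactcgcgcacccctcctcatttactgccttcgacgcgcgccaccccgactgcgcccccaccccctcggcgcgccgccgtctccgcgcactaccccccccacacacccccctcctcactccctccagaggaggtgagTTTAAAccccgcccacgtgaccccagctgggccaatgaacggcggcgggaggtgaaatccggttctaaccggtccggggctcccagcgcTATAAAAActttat
HMGN5 promoter, chrX:81201864-81202163, minus strand: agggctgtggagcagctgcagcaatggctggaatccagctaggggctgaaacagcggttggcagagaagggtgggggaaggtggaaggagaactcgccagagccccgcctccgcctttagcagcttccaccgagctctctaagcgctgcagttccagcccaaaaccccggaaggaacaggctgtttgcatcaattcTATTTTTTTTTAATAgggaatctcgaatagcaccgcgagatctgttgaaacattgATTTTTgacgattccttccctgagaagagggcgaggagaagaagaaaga
Each of the 3 held 2 such runs. The longest was 8 bases in HMGA1 and HMGN2 and 15 in HMGN5. Of 35116 promoters in the table, 61.2% held at least 1 run, as did 10 of the 12 entries found for 8 of the members. The A and T content was 28.0% for HMGA1, 34.7% for HMGN2 and 47.3% for HMGN5, beside a median of 41.3% over all promoters. A second HMGA1 entry, chr6:34238541-34238840, held 47.0% A and T. The letters TATAAA, searched on both strands and able to overlap an A or T run, occurred in the HMGN2 entry and in none of the other 11, and in 11.5% of all promoters. The letters CCAAT, searched on both strands, occurred in 8 of the 12 and in 34.6% of all. A match describes the letters and is no binding site.

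HMGB2, a DNA-bending protein of dividing cells, and HMGB3, best known from blood stem cells, rose by similar amounts in both lines. HMGB2 (chr4:173331376-173334432) had 4751 and 4428 counts in the control libraries, 6500 and 6798 with shHMGA2-1 and 6631 and 6243 with shHMGA2-2. All 4 knockdown libraries were above both shNC libraries, while the knockdown lines overlapped. On the log2 scale it rose by 0.46 ± 0.07 in shHMGA2-1 (adjusted p = 7.01e-06) and by 0.41 ± 0.07 in shHMGA2-2 (1.08e-05), and the knockdown lines differed by -0.05 (95% interval -0.18 to 0.09). HMGB3, on the X chromosome (chrX:150980509-150990771), had 1031 and 989 counts in the control libraries, 1386 and 1568 with shHMGA2-1 and 1364 and 1450 with shHMGA2-2. It showed the same layout as HMGB2, at 0.47 ± 0.08 (adjusted p = 0.000112) and 0.40 ± 0.08 (adjusted p = 0.000296), with -0.07 (-0.24 to 0.10) between the knockdown lines.

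HMGB1, the founding HMG-box protein and a danger signal when released (chr13:30456704-30617597), had 9274 and 9320 counts in the control libraries, 8229 and 8931 with shHMGA2-1 and 8536 and 8339 with shHMGA2-2. All knockdown libraries were below shNC by a small margin. On the log2 scale the differences were -0.19 ± 0.06 in shHMGA2-1 (adjusted p = 0.0188) and -0.22 ± 0.06 in shHMGA2-2 (0.0041). Under all 13 alternatives the values stayed below 0, at -0.27 to -0.12 in shHMGA2-1 and -0.26 to -0.10 in shHMGA2-2. The calls did not hold with upper-quartile scaling (adjusted p = 0.103 and 0.14) or with limma on log2(FPKM + 1) (0.122 and 0.159), so that the calls depended on the scaling. They were also lost without 1 library: in shHMGA2-1 without shNC replicate 1 (0.131), shNC replicate 2 (0.157) or shHMGA2-1 replicate 1 (0.106), and in shHMGA2-2 without shNC replicate 2 (0.057) or shHMGA2-2 replicate 2 (0.0681). Reads of HMGB1 are also the most exposed to copies, since its 48 pseudogenes in the table held 16.8% as many counts as the gene, beside 3.58% over all members. HMGB1P5 had 808 and 667 counts in the control libraries, 785 and 693 with shHMGA2-1 and 768 and 649 with shHMGA2-2. HMGB1P6 had 645 and 683, 719 and 700, and 574 and 598 counts in that order of lines. The lines overlapped for HMGB1P5. For HMGB1P6 shNC and shHMGA2-1 overlapped in CPM, while shHMGA2-2 was lower than shNC, by a log2 change of -0.26 (adjusted p = 0.0197) beside -0.22 for HMGB1.

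HMGN2, which binds nucleosomes and unfolds chromatin (chr1:26472440-26476642), rose most of the 10 members in shHMGA2-2. It had 6694 and 6547 counts in the control libraries, 8620 and 9138 with shHMGA2-1 and 16069 and 15480 with shHMGA2-2. The 3 lines did not overlap and their order was the reverse of that of HMGA2. The log2 fold change was 0.35 ± 0.06 in shHMGA2-1 (adjusted p = 9.57e-05) and 1.17 ± 0.06 in shHMGA2-2 (adjusted p = 3.91e-14), and the knockdown lines differed by 0.83 ± 0.06 (adjusted p = 4.11e-11). Of its pseudogenes with at least 10 counts in a library, 2 were higher in shHMGA2-2 and not called in shHMGA2-1. HMGN2P5 had 61 and 45 counts in the control libraries, 60 and 66 with shHMGA2-1 and 134 and 134 with shHMGA2-2, and HMGN2P3 had 27 and 19, 34 and 34, and 69 and 65. The lines overlapped for HMGN2P46 (8 and 13, 17 and 19, 11 and 23) and HMGN2P4 (5 and 9, 5 and 5, 13 and 5). Together the 38 HMGN2 pseudogenes held 1.53% as many counts as the gene, and whether their reads came from HMGN2 was not tested.

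HMGN5, the longest HMGN protein, with an acidic tail that counters linker histone (chrX:81113699-81201913), had 645 and 761 counts in the control libraries, 768 and 857 with shHMGA2-1 and 264 and 259 with shHMGA2-2. The shHMGA2-2 libraries lay far below the other 4, while shHMGA2-1 lay above shNC in counts and overlapped it in CPM. The log2 fold change was 0.13 ± 0.10 in shHMGA2-1 (95% interval -0.08 to 0.34, adjusted p = 0.354) and -1.51 ± 0.11 in shHMGA2-2 (adjusted p = 3.53e-11). The difference between the knockdown lines, -1.64 ± 0.11 (adjusted p = 1.07e-11), was the largest in size of the 10 members.

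HMGN1, the nucleosome-binding protein encoded on chromosome 21 (chr21:39342315-39349647), had 4733 and 4610 counts in the control libraries, 5528 and 5908 with shHMGA2-1 and 5604 and 5578 with shHMGA2-2. All knockdown libraries were above shNC. The rise on the log2 scale was small, 0.21 ± 0.06 and 0.18 ± 0.06 (adjusted p = 0.0119 and 0.0194). Both calls were lost without either shNC library, at adjusted p = 0.0979 to 0.169, and that in shHMGA2-2 also without either shHMGA2-2 library (0.136 and 0.0638) and with no filter on low counts (0.0555).

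HMGN4, a retrogene-derived relative of HMGN2 (chr6:26538366-26546933), had 1991 and 1982 counts in the control libraries, 1974 and 2260 with shHMGA2-1 and 1714 and 1740 with shHMGA2-2. The shHMGA2-1 libraries lay on either side of shNC, and those of shHMGA2-2 below it. The log2 fold change there was -0.28 ± 0.08 (adjusted p = 0.00347), which missed the threshold with upper-quartile scaling (0.0642) and with limma on log2(FPKM + 1) (0.0909). In shHMGA2-1 it was 0.01 (95% interval -0.15 to 0.18), and the knockdown lines differed by -0.30 ± 0.08 (adjusted p = 0.0028). HMGN3 (chr6:79201245-79234738) had 752 and 830 counts in the control libraries, 716 and 787 with shHMGA2-1 and 781 and 786 with shHMGA2-2, and the 3 lines overlapped. Its log2 fold changes, -0.15 (-0.35 to 0.04) and -0.09 (-0.29 to 0.10), were not called, and the latter changed sign with upper-quartile scaling, to 0.021. Without shHMGA2-1 replicate 2 the value in that line was -0.24 (adjusted p = 0.0489).

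**Figure D2:**
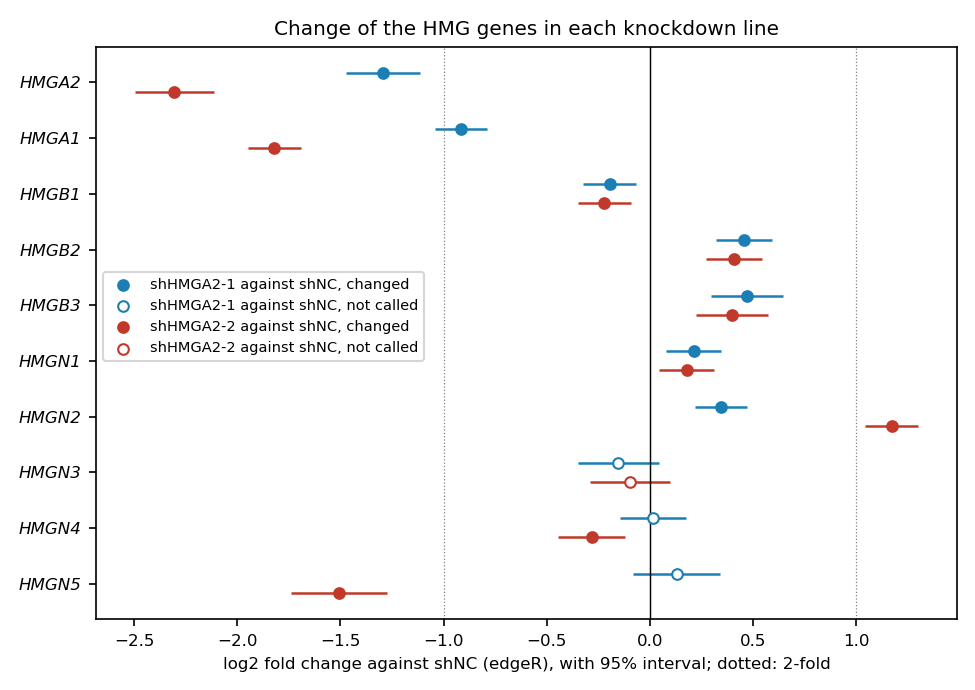
Log2 fold change (x axis) of each HMG gene against shNC from edgeR in shHMGA2-1 (blue) and shHMGA2-2 (red). Bars are 95% intervals, filled points had an adjusted p under 0.05, open points did not, and dotted lines mark 2-fold. HMGA2, HMGA1, HMGN5 and HMGN2 pass 2-fold in shHMGA2-2, and only HMGA2 does in shHMGA2-1.

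Set directly against each other, shHMGA2-2 was higher than shHMGA2-1 in 1 member (HMGN2) and lower in 4 (HMGA2, HMGA1, HMGN4 and HMGN5), against 24.5% and 25.7% of all genes, and 2 passed 2-fold, against 15.1%. The 3 HMGB genes, HMGN1 and HMGN3 were not called between the lines, with 95% intervals of the difference that reached from -0.24 to 0.25 at the widest. When the 4 shHMGA2 libraries were taken as a single group, so that the difference between the lines counted as error, HMGB2 was higher (0.43 ± 0.09, adjusted p = 0.0447) and HMGA2 lower (-1.71 ± 0.34, adjusted p = 0.0421), against 2.34% and 2.92% of all genes, and HMGA2 alone passed 2-fold, against 3.09%. HMGA1 was at -1.30 ± 0.30 (adjusted p = 0.0626), HMGN2 at 0.82 ± 0.30 (0.161) and HMGN5 at -0.47 with a 95% interval of -1.77 to 0.84. At an unadjusted p under 0.05 there were 7 members. The share of all genes at that threshold was not worked out, so this count says nothing about the members as a set. DESeq2 called 4 members, beside 960 genes higher and 1022 lower of 17041. Without 1 of the 4 shHMGA2 libraries HMGB2 was not called, whichever it was (adjusted p = 0.0613 to 0.114). HMGA2 was then called only without shHMGA2-1 replicate 2 (0.0695 to 0.0801 without the others). Over all genes these fits called 148 to 334 higher and 167 to 488 lower, beside 377 and 471 with all libraries. Without shNC replicate 1 or 2, which leaves 1 control library, HMGB2 was at 0.48 and 0.38 and HMGA2 at -1.73 and -1.70. With a replicate block neither was called (0.137 and 0.114), with 72 genes higher and 80 lower over all. The losses therefore say little about these 2 members by themselves.

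On the FPKM scale the HMGA sum fell in both lines, and in shHMGA2-2 HMGN2 took the place of HMGA1 as the largest member. The summed FPKM of the HMGA genes was 534 ± 15.5 in shNC (SD, n = 2), 295 ± 22.6 in shHMGA2-1 and 163 ± 1.41 in shHMGA2-2. The HMGN sum was 299 ± 2.02, 353.6 ± 20.8 and 472 ± 9.998 in that order, and without HMGN2 it was 177 ± 3.97, 191 ± 13.8 and 173 ± 0.47, so that the rise in shHMGA2-2 lay in HMGN2. The HMGB sum was 199 ± 5.85, 249 ± 11.2 and 250 ± 8.43, so that the knockdown lines overlapped there. Over all 10 members the sum was 1031 ± 11.6 in shNC, 897 ± 9.38 in shHMGA2-1 and 886 ± 19.8 in shHMGA2-2, a ratio to shNC of 0.87 and 0.859. In the control libraries HMGA1 made up 50.3% and 51.6% of the sum, falling to 34.5% and 30.4% with shHMGA2-1 and 18.1% and 18.4% with shHMGA2-2. HMGN2 made up 12.1% and 11.6%, then 17.7% and 18.5%, then 34.0% and 33.6%.

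**Figure D3:**
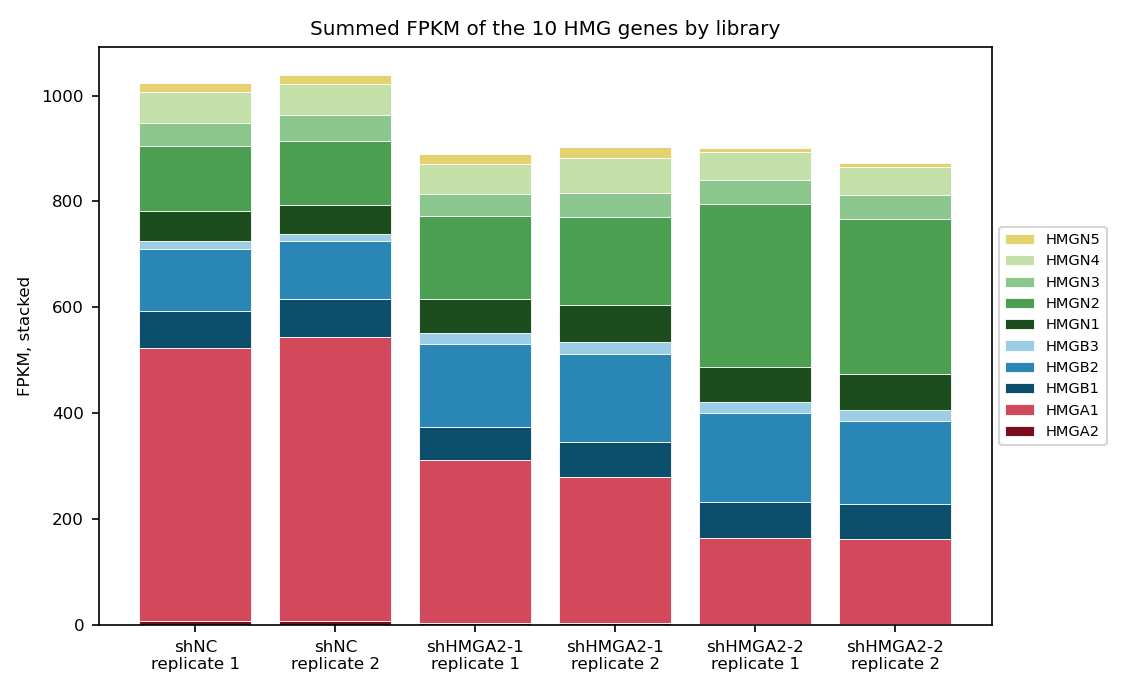
FPKM of the 10 HMG genes stacked for each of the 6 libraries (y axis from 0). The red HMGA1 block shrinks from 50.3% and 51.6% of the stack in shNC to 18.1% and 18.4% in shHMGA2-2, and the HMGN2 block grows from 12.1% and 11.6% to 34.0% and 33.6%.

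By level per length, the order in shNC after HMGA1 was HMGN2 (122 ± 1.95 FPKM), HMGB2 (113 ± 5.63), HMGB1 (71.2 ± 0.23), HMGN4 (58.7 ± 0.21), HMGN1 (54.6 ± 1.03), HMGN3 (45.9 ± 3.19), HMGN5 (17.3 ± 2.02), HMGB3 (15.2 ± 0.45) and HMGA2. HMGN5 and HMGB3 differed by little more than the SD of HMGN5, and HMGN2 and HMGB2 by less than 2 SDs of HMGB2. The order also depends on the exonic sizes used, such as 1014 bases for HMGN3 and 7696 for HMGB1. In CPM, which is not divided by length, HMGB1 (572) was above HMGN2 (407) and HMGB2 (282) in shNC. In shHMGA2-2, HMGN2 led at 299 ± 9.52 FPKM, and HMGB2 (162 ± 7.79) and HMGA1 (162 ± 1.53) could not be ordered.

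The 5 genes whose pattern over the 6 libraries was most like that of HMGA2, by the root mean square distance of centred log2 CPM among 9510 genes with a mean of at least 10 CPM, were CACNB4 (0.104), CCNY (0.107), NAV3 (0.108), SUCLG2-DT (0.142) and CREM (0.146). The 6 points come from 3 lines, and many genes can share such a pattern. HMGA1 stood at rank 37 (0.237), HMGN5 at rank 677 (0.590) and HMGN2 at rank 9216 (1.42).

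The transcripts that overlap the members were few. RPSAP52, whose gene overlaps the start of HMGA2 on the other strand, had 99 and 115 counts in the control libraries, 103 and 90 with shHMGA2-1 and 43 and 50 with shHMGA2-2. HMGA2-AS1 had 61 and 38, 29 and 40, and 24 and 31 counts in that order, and HMGN3-AS1 had 21 and 27, 17 and 21, and 40 and 30. RPSAP52 and HMGA2-AS1 were lower in shHMGA2-2 (adjusted p = 1.56e-05 and 0.0184) and not called in shHMGA2-1, where 0 of the 3 passed edgeR's test. The HMGA2-AS1 call was lost with DESeq2 (adjusted p = 0.13), without shNC replicate 1 (0.269) and without shHMGA2-2 replicate 1 (0.125), and the gene was under the level minimum of limma. The strand setting of the counting is not given in the sources used here, and without it reads of a gene and its antisense partner cannot be told apart. HMGN1P8, a pseudogene called higher in both lines, had 0 and 4 counts in the control libraries, 5 and 22 with shHMGA2-1 and 9 and 12 with shHMGA2-2, so that libraries of shNC and shHMGA2-1 differed by 1 count at the nearest.

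The let-7 microRNAs are shown because their sites in the HMGA2 3′ UTR are the best-known control of its messenger RNA. The seed, bases 2 to 8 of the mature form (RefSeq), is in capitals.
hsa-let-7a-5p: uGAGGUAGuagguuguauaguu
The complement of this seed, CTACCTC, occurred 4 times in a 3′ UTR of HMGA2 and 1 time in that of HMGA1, and not in those of the other 8 members. It was in 10.5% of 19146 genes. Of 12 tested regulators of the let-7 axis, 3 were higher and 3 lower in shHMGA2-1, against 15.8% and 17.6% of all genes, and 3 and 3 in shHMGA2-2, against 29.5% and 29.2%. Fewer than these 6 were called in shHMGA2-1 without either shNC library or without shHMGA2-1 replicate 1. Such fits leave 1 library in a line and called fewer genes over all too. IGF2BP2, an RNA-binding protein and itself a known HMGA2 target, fell from 329 and 352 CPM in the control libraries to 240 and 243 with shHMGA2-1 and 134 and 131 with shHMGA2-2, a log2 change of -0.49 ± 0.06 and -1.36 ± 0.07 (adjusted p = 1.49e-06 and 8.12e-15). Its paralog IGF2BP3 (-0.32 and -0.88) and the Argonaute gene AGO2 (-0.23 and -0.38) were also lower in both lines. DICER1 (0.26 and 0.33) and DGCR8 (0.27 and 0.24), of microRNA processing, were higher in both. LIN28A, LIN28B and the other genes of this list that did not pass the filter were not tested.

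Of 25 other genes with an HMG box that were tested, 4 were higher and 7 lower in shHMGA2-1, against 15.8% and 17.6% of all genes, and 3 and 15 in shHMGA2-2, against 29.5% and 29.2%, with median log2 fold changes of -0.06 and -0.36 beside 0.01 and 0.03 over all genes. TOX, a regulator of T-cell development, fell from 11.1 and 10.5 CPM in the control libraries to 3.11 and 2.71 with shHMGA2-1 and 0.65 and 0.975 with shHMGA2-2, a log2 fold change of -1.89 ± 0.20 and -3.72 ± 0.25 (adjusted p = 7.28e-08 and 5.91e-12). Its paralog TOX2 was at -1.40 and -1.62 on the log2 scale, and BBX at -0.41 and -0.44. TCF7L1, a Wnt pathway factor, rose by 1.14 and 1.42, and HBP1, a repressor of the cell cycle, by 0.49 and 0.49.

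Among 27 chromatin architecture and HMG partner genes, 1 was higher and 8 lower in shHMGA2-1, against 15.8% and 17.6% of all genes, and 6 and 13 in shHMGA2-2, against 29.5% and 29.2%. Fewer than these 9 were called in shHMGA2-1 without either shNC library. Such fits leave 1 control library and called fewer genes over all too. SATB1, which binds AT-rich DNA as HMGA proteins do, had 31.5 and 32.4 CPM in the control libraries, 19.1 and 18.1 with shHMGA2-1 and 6.09 and 6.77 with shHMGA2-2, a log2 fold change of -0.78 ± 0.11 and -2.31 ± 0.13 (adjusted p = 5.69e-06 and 1.11e-13). DEK was at -0.28 and -0.42 on the log2 scale, and the histone chaperone gene ANP32A rose by 0.25 and 0.56. Among the linker histones, the partners that HMGN proteins displace, H1-2 rose in shHMGA2-2 (1.47 on the log2 scale, adjusted p = 1.91e-10) and was at 0.02 in shHMGA2-1 (adjusted p = 0.929), and no linker histone gene was called alike in both lines. H1-2 belongs to the replication-type histones, whose transcripts mostly lack a poly(A) tail.

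Of 8 tested receptors and partners of HMGB1, 1 was higher and 1 lower in shHMGA2-1, against 15.8% and 17.6% of all genes, and 3 and 3 in shHMGA2-2, against 29.5% and 29.2%. TLR4, a receptor for extracellular HMGB1 and bacterial lipopolysaccharide, was lower in both: it had 43.7 and 41.4 CPM in the control libraries, 4.27 and 5.13 with shHMGA2-1 and 1.60 and 1.78 with shHMGA2-2. The lines did not overlap, and the change on the log2 scale was -3.18 ± 0.14 and -4.65 ± 0.16 (adjusted p = 8.83e-15 and 1.79e-17). Of 20 proliferation genes, 8 were higher and 2 lower in shHMGA2-1, and 11 and 4 in shHMGA2-2, all by less than 2-fold, beside the same shares of all genes. The 10 calls in shHMGA2-1 were fewer without either shNC library or without shHMGA2-2 replicate 2. Such fits leave 1 library in a line and called fewer genes over all too. With a replicate block there were 5, with 2279 genes higher and 2561 lower over all, beside 2545 and 2843 in the main fit. CCNB1 (0.32 and 0.31), MCM6 (0.21 and 0.25) and RRM2 (0.19 and 0.19) rose in both lines and MKI67 (-0.18 and -0.60) fell in both. HMGB2 is itself known to be higher in dividing cells, and the part of proliferation in its rise was not tested.

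**Figure D4:**
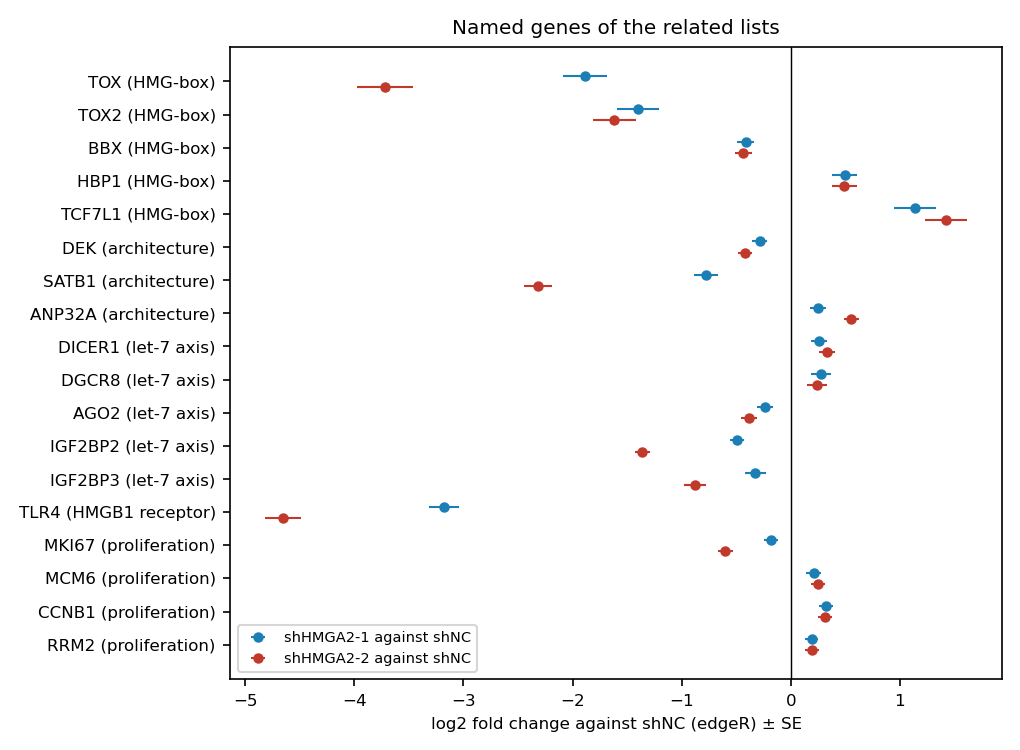
Log2 fold change against shNC (x axis, edgeR, bars are ± SE) in shHMGA2-1 (blue) and shHMGA2-2 (red) for the genes named from the HMG-box, architecture, let-7 axis, HMGB1 receptor and proliferation lists. Pseudogenes are not drawn. TLR4 at -3.18 and -4.65 and TOX at -1.89 and -3.72 lie farthest to the left, and TCF7L1 at 1.14 and 1.42 farthest to the right.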

How the data were processed

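MDA-MB-231 RNA was sequenced in 6 libraries, 2 each of shNC, shHMGA2-1 and shHMGA2-2, grouped by title. The authors deposited 1 table of raw counts per gene and FPKM values per library. Per the submitters' processing notes, HISAT2 2.2.1, HTSeq 0.6.1 and GRCh38.p13 were used, and strand setting and annotation are not given in the sources used here. The deposited FPKM values were recomputed from counts, exonic size and library total for 100% of values. Libraries held 16461178 to 17167293 counts.

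In R 4.3.3, edgeR 4.0.16 (TMM factors 0.958 to 1.05, filterByExpr, quasi-likelihood test, Benjamini-Hochberg over 16110 genes) fitted 3 groups, and the 4 shHMGA2 libraries as a single group. CPM are TMM-scaled. Alternatives were DESeq2, other scalings, no filter, limma on log2(FPKM + 1) and log2(FPKM + 0.1), a replicate block and leaving out each library. On simulated counts of 15536 genes with 200 changed, the edgeR test recovered 186 in shHMGA2-1 and 183 in shHMGA2-2. False calls numbered 16 and 11. In the data far more genes were called, 2545 higher and 2843 lower in shHMGA2-1 and 4760 and 4704 in shHMGA2-2. Recovery was counted over all changed genes together, and that of changes under 2-fold was not tested by itself. Such changes include those of HMGB1 and HMGN1 in both lines, and of every member but HMGA2 in shHMGA2-1.

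The members and lists were chosen with earlier results of these data known. Named from each list were the up to 3 genes in each direction with the largest change called alike in both lines, and pseudogenes or antisense transcripts with at least 10 counts. Some genes that this rule would name are not reported here. For every member the table and GENCODE version 29 gave the same chromosome, and for 4 also the same start and end. Coordinates are those of the table.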

Additional observations from a re-analysis of the deposited data

Results flagged for a closer look

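For 5 of the 10 members the effect against shNC differed between the knockdown lines by edgeR's test of shHMGA2-2 against shHMGA2-1, in which 24.5% of all genes were higher and 25.7% lower, so that the number of members called is near the share of all genes. The log2 difference was -1.01 for HMGA2 (adjusted p = 3.07e-09), -0.90 for HMGA1 (adjusted p = 7.25e-12), 0.83 for HMGN2 (adjusted p = 4.11e-11), -0.30 for HMGN4 (adjusted p = 0.0028) and -1.64 for HMGN5 (adjusted p = 1.07e-11). HMGA2 was itself lower in shHMGA2-2, and clone, hairpin and the level of HMGA2 cannot be told apart.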

How the results depend on the processing

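HMGA2, HMGA1, HMGB2, HMGB3 and HMGN2 in both lines, and HMGN5 in shHMGA2-2, kept their direction and their call under all 13 alternatives. The calls of HMGB1, HMGN1 and HMGN4 did not, as given beside them. Upper-quartile scaling moved the median log2 fold change of all genes by 0.064 in shHMGA2-1 and 0.115 in shHMGA2-2, and the share of calls that were higher from 47.2% to 58.8% in shHMGA2-1, from 50.3% to 59.9% in shHMGA2-2 and from 44.5% to 55.7% with shHMGA2 as a single group. In shHMGA2-1 the calls of DEK, ANP32A, DICER1, DGCR8, AGO2, IGF2BP3, MKI67, MCM6 and RRM2 were lost under 2 to 7 of 13 alternatives, and in shHMGA2-2 those of DGCR8, MCM6 and RRM2 under 1 to 5. The cause was not tested. Counts from 2 libraries a line limit small changes such as those of HMGB1 and HMGN1.

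The reversals concerned values near 0 that were not called in the main comparison. Between the knockdown lines, HMGB1 turned to 0.025, HMGB2 to 0.0030 and HMGN1 to 0.017 with upper-quartile scaling, to 0.030, 0.0061 and 0.021 with limma on log2(FPKM + 1), and to 0.030, 0.0062 and 0.021 with log2(FPKM + 0.1). HMGN3 in shHMGA2-2 turned to 0.021, 0.026 and 0.027 under the same 3 settings, and HMGN4 in shHMGA2-1 to -0.0040 with DESeq2 and -0.0039 with no filter. With each library left out in turn, the difference between the knockdown lines ranged from -0.099 to 0.051 for HMGB1, -0.11 to 0.013 for HMGB2, -0.17 to 0.035 for HMGB3, -0.097 to 0.031 for HMGN1 and -0.024 to 0.14 for HMGN3, and HMGN4 in shHMGA2-1 from -0.10 to 0.12.

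Against shNC, 6 or 7 members were called in shHMGA2-1 over the alternatives that kept all 6 libraries, and 7 to 9 in shHMGA2-2. Calls over all genes varied too. In shHMGA2-1 DESeq2 called 1473 higher and 2289 lower of 17041, and upper-quartile scaling 3253 and 2278 of 16110. In shHMGA2-2 these were 3588 and 4081 of 20749, and 5810 and 3884 of 16110. Counts of members moved by more than 1.5 times in 2 comparisons. Between the knockdown lines, 1 member in place of 2 passed 2-fold with upper-quartile scaling, with limma at both pseudocounts, and without shHMGA2-1 replicate 2 or shHMGA2-2 replicate 1 (range 1 to 2 over the left-out libraries). With shHMGA2 as a single group, DESeq2 called 4 members, 2 of them past 2-fold, and the mean of the shRNA contrasts 8 and 2. No filter called 1, and leaving out 1 shHMGA2 library 0 to 1, with 0 to 1 past 2-fold. Of all genes in that single-group comparison, DESeq2 called 960 higher and 1022 lower of 17041, and no filter 276 and 427 of 31871. Leaving out 1 shHMGA2 library gave 148 to 334 higher and 167 to 488 lower of 16110. The mean of the shRNA contrasts called 3820 and 4195 of 16110, so that its member count comes with many calls in all. With the replicate number as a block, 0 members and 0 past 2-fold were called there by edgeR, 0 HMG-box genes and 0 HMGB1 receptors, and 5 proliferation genes in shHMGA2-1. Over all genes, 72 were higher and 80 lower with the block in the single-group comparison, and 2279 and 2561 in shHMGA2-1. The block changed no member's call in the other comparisons. Replicate differences over 9511 genes correlated at -0.0517 between shNC and shHMGA2-1 and at 0.0193 between shNC and shHMGA2-2. Between the knockdown lines they correlated at -0.346, so that their replicate differences ran partly in opposite directions, and the source of this was not tested. Nothing in the labels says that equal replicate numbers pair the libraries.

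Among the lists, in shHMGA2-1 DESeq2 called 3 let-7 axis and 6 proliferation genes, RLE size factors 6 proliferation genes, and limma at both pseudocounts 7 HMG-box and 3 let-7 axis genes. With each library left out in turn, 1 to 2 linker histones (2 without shHMGA2-1 replicate 2), 4 to 12 architecture genes (4 without either shNC library), 2 to 6 let-7 axis genes (2 without either shNC library or shHMGA2-1 replicate 1) and 3 to 11 proliferation genes (3 without either shNC library, 6 without shHMGA2-2 replicate 2) were called there. In shHMGA2-2 upper-quartile scaling called 10 let-7 axis genes, DESeq2 and limma at both pseudocounts called 1 antisense transcript, and leaving out 1 library 1 to 2 (1 without shNC replicate 1 or shHMGA2-2 replicate 1). Between the knockdown lines limma called 2 HMGB1 receptors at a pseudocount of 1 and 3 at 0.1, and upper-quartile and RLE scaling called 2 antisense transcripts. With shHMGA2 as a single group, DESeq2 called 6 HMG-box, 1 architecture, 1 let-7 axis and 1 proliferation gene, upper-quartile scaling and limma 1 proliferation gene, and leaving out 1 library 0 to 2 HMG-box genes, 0 to 1 architecture gene and 0 to 1 HMGB1 receptor. The mean of the shRNA contrasts called 15 HMG-box genes, 2 linker histones, 14 architecture genes, 7 let-7 axis genes, 5 HMGB1 receptors, 12 proliferation genes and 2 antisense transcripts. Of all 16110 genes it called 3820 higher and 4195 lower. Summed as CPM in place of FPKM, the HMGB ratio to shNC was 1.11 and 1.12, the HMGN ratio in shHMGA2-2 1.68, and that of all members 0.895 and 0.92.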
